A study of Mus musculus with 10 samples.

Results

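The 3 Gli transcription factor genes, Gli1, Gli2 and Gli3, were followed as genes and as single transcripts in bulk RNA-seq of the mouse mandibular prominence (MNP), the part of the first pharyngeal arch that forms the lower jaw. The members were all rows that carried one of these 3 gene symbols, which gave 3 of 33641 genes and 18 of 105129 transcripts. Gli1 had 5 transcripts, Gli2 had 9 and Gli3 had 4. MNPs were dissected at embryonic day 10.5 from embryos of the CD1 strain. The 6 libraries used were WT replicates 3 and 4, 3 replicates of Wnt1-Cre+ embryos homozygous for a floxed Hand2 allele (Hand2 f/f, here Hand2 cKO) and replicate 3 of Wnt1-Cre+ embryos homozygous for floxed alleles of both Gli2 (Gli2 f/f) and Gli3 (Gli3 f/f), here Gli2/3 cKO. The WT group was labelled wild-type. Wnt1-Cre was named only for the mutants, and both mutant genotypes shared it. Wnt1-Cre recombines floxed alleles in neural crest cells and not in the epithelium, endothelium or mesoderm that a dissected MNP also holds. The sources used here do not give the exons flanked by loxP sites, or whether a library was 1 embryo or a pool.

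Gli proteins are zinc-finger transcription factors that carry the Hedgehog signal to the genome. Without ligand, the receptor Patched holds Smoothened off and Gli3, and to a lesser degree Gli2, is cut to a shorter form that represses target genes. With ligand, Gli2 and Gli3 stay whole and act as activators, and Gli1, which has no repressor form, is itself switched on as a target and is widely read as a measure of the response. In the facial primordia, Sonic hedgehog (Shh) made by the epithelium signals to the neural crest mesenchyme below it, where the Gli genes are used.

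Libraries held from 21420197 (WT 4) to 53326697 (Hand2 cKO 1) estimated counts, with 25421663 in the Gli2/3 cKO library. Levels below are CPM, counts scaled to the size of the library, which serve to compare 1 gene between libraries, or TPM, which also divide by transcript length and allow comparison between genes. Hand2 cKO replicate 2 stood apart from the other libraries. Its log2 level relative to the other libraries changed by -0.23 for each doubling of transcript length, and this trend came to -0.18 at the length of Gli1, -0.52 at that of Gli2 and -0.64 at that of Gli3. In the other 5 libraries the change per doubling lay between -0.065 and 0.11. The levels and fold changes of the Gli genes in Hand2 cKO, and the fold changes of the pathway genes named there, are therefore given with and without it. Hand2, the other targeted gene, was at 174.5 and 209.1 CPM in WT, at 13.4, 25.5 and 15.6 CPM in Hand2 cKO and at 144.1 CPM in the Gli2/3 cKO library, so the 3 Hand2 cKO libraries matched their label. All 11 markers of neural crest mesenchyme had counts in every library, with a summed level of 1623 to 2028 CPM. Epithelial markers summed to 286 to 379 CPM and endothelial markers to 203 to 257 CPM, all of them detected in every library. Erythroid markers summed to 2565 to 10240 CPM, macrophage markers to 13.2 to 26.8 CPM, muscle precursor markers to 30.6 to 39.3 CPM and neuronal markers to 28.9 to 37.8 CPM. Of these markers, Lbx1 (muscle) was at 0 in all Hand2 cKO and Gli2/3 cKO libraries and Neurod1 (neurons) in WT 4. In bulk tissue, fewer cells of a type and less RNA per cell cannot be told apart.

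Coordinates are those of the GENCODE M21 annotation on mm10. Gli1 lay at chr10:127329882-127341974 on the minus strand, Gli2 at chr1:118834132-119053619 on the minus strand and Gli3 at chr13:15463235-15730026 on the plus strand. Each gene had 1 full-length coding transcript in the files, Gli1-201 with 13 exons and 4057 bases, Gli2-201 with 14 exons and 6637 bases and Gli3-201 with 15 exons and 8170 bases. The 3 coding sequences were alike, which bears on whether their reads could be told apart, and the most alike stretch of 60 coding bases is shown for that reason. It lies within the part that encodes the zinc fingers, at chr10:127333715-127333774 in exon 11 of Gli1-201, at chr1:118842114-118842173 in exon 12 of Gli2-201 and at chr13:15720079-15720138 in exon 13 of Gli3-201. Sequences are given 5′ to 3′ on the strand of the gene, and capitals mark bases that are identical in all 3 genes.
Gli1: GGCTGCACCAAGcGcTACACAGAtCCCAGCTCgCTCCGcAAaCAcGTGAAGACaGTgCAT
Gli2: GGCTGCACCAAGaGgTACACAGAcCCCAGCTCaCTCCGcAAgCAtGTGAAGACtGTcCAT
Gli3: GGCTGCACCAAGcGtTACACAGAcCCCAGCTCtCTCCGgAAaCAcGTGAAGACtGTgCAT
Of the 60 bases, 51 were identical in all 3 genes, and the pairs shared 52 (Gli1 and Gli2), 55 (Gli1 and Gli3) and 53 (Gli2 and Gli3). Over the whole coding sequences, aligned bases were identical at 68.9%, 67.4% and 67.8% in the same order of pairs. The longest run of identical bases was 25, between Gli2 and Gli3. No 31-base word of one full-length transcript occurred in a transcript of another Gli gene. Only the 3 full-length transcripts of the 18 hold this stretch, and the other 15 end before it. For Gli1, 6.68% of the 31-base words of Gli1-201 also occurred in transcripts of Arhgap9 or Gm47200, which lie on the opposite strand and overlap it. Arhgap9 itself was at 2.10 to 3.36 CPM in the 6 libraries, with 2.56 CPM in the Gli2/3 cKO library. Gm47200 was not among the genes with deposited counts, so its level is not known.

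All 3 Gli genes were expressed in the WT MNP, and Gli1 had the highest level per length. In WT replicates 3 and 4, Gli1 was at 70.5 and 72.6 TPM, Gli3 at 47.6 and 35.9 TPM and Gli2 at 41.1 and 31.9 TPM. The WT means were 71.5 ± 1.5 TPM for Gli1, 41.8 ± 8.26 TPM for Gli3 and 36.5 ± 6.5 TPM for Gli2 (SD, n = 2). Gli1 was above both others in each WT library. Gli3 was above Gli2 in each as well, with a ratio of 1.158 in WT 3 and 1.125 in WT 4. The means of Gli2 and Gli3 lay closer together than the SD between libraries. In WT, 84.4% of the 17477 genes tested had a lower TPM than Gli1, 73.5% a lower one than Gli3 and 70.8% a lower one than Gli2. In Hand2 cKO the order of the means was the same, at 53.9 ± 15.5 TPM for Gli1, 33.7 ± 13.6 TPM for Gli3 and 30.2 ± 11.7 TPM for Gli2 (SD, n = 3), with replicate 2 lowest for all 3 genes. Without replicate 2, a choice made after seeing the data, they were 62.7 ± 3.66, 40.7 ± 8.40 and 36.9 ± 1.99 TPM (SD, n = 2). In the Gli2/3 cKO library the order turned, with Gli3 at 20.4 TPM, Gli2 at 18.2 TPM and Gli1 lowest at 15.7 TPM. TPM divides by the length of each transcript, and with the length of the longest transcript of the gene the same orders were found, at 25.2, 22.5 and 16.2 TPM in the Gli2/3 cKO library.

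**Figure D1:**
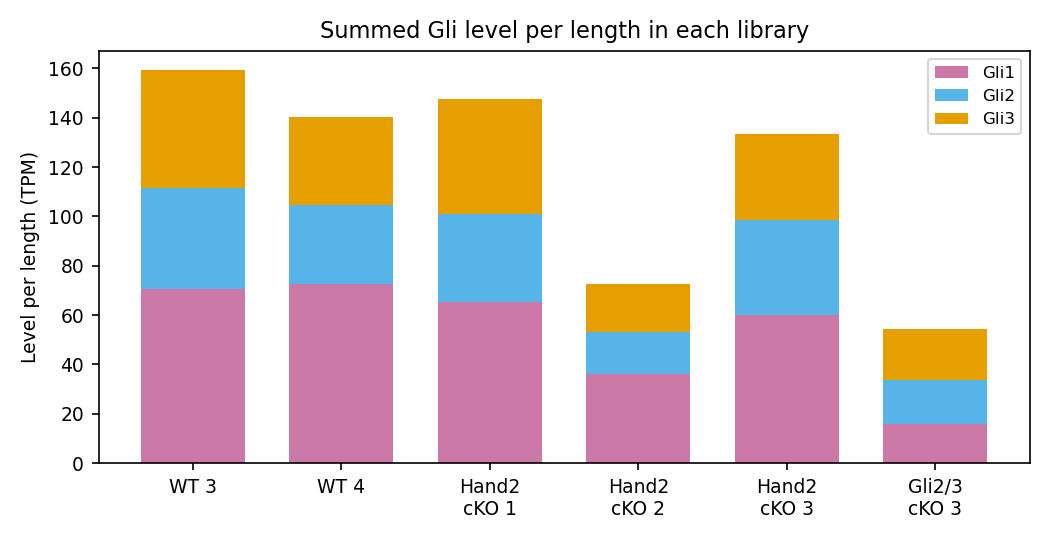
Level per length (TPM, y axis) of Gli1, Gli2 and Gli3, stacked, in each of the 6 libraries (x axis). The summed level was 133.3 to 159.2 TPM in 4 of the WT and Hand2 cKO libraries, 72.7 TPM in Hand2 cKO 2 and 54.3 TPM in the Gli2/3 cKO library, where the Gli1 part was smallest.

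The make-up of the 3 genes also differed in the Gli2/3 cKO library. Gli1 made up 44.3% and 51.7% of the summed Gli TPM in WT, 44.3%, 49.96% and 45.1% in Hand2 cKO and 29.0% in the Gli2/3 cKO library. The ratio of Gli1 to the sum of Gli2 and Gli3 was 0.794 and 1.07 in WT, 0.794, 0.999 and 0.822 in Hand2 cKO and 0.409 in the Gli2/3 cKO library. The Gli2/3 cKO library thus lay below all 5 others on this ratio. The ratio of Gli3 to Gli2 was 1.12 in the Gli2/3 cKO library, within the 0.908 to 1.31 of the other 5 libraries. With 1 library there is no replicate check of these ratios.

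The first question was how much of the targeted genes remained in the Gli2/3 cKO library. Gli2, the main activator in response to Hedgehog ligand, was at 122.1 and 105.5 CPM in WT and at 58.3 CPM in the Gli2/3 cKO library. Gli3, whose cut form is the main repressor, was at 175.7 and 145.0 CPM in WT and at 80.2 CPM in the Gli2/3 cKO library. For both genes the Gli2/3 cKO library lay below both WT libraries and below all 3 Hand2 cKO libraries, and 16.8% of all genes tested had their lowest level in this library. The Gli2/3 cKO level was 51.3% of the WT mean for Gli2 and 50% for Gli3. Set against single libraries it was 47.8% of WT 3 and 55.3% of WT 4 for Gli2 and 45.6% and 55.3% for Gli3. The library held 1524 estimated counts of Gli2 and 2095 of Gli3, so the remaining level was far above the 3 counts taken as the detection floor. The deposited values are estimates per transcript and do not divide the remaining counts by exon or by cell type. Beside this, the summed level of the neural crest mesenchyme markers was 1987 CPM in the Gli2/3 cKO library, within the 1623 to 2028 CPM of the others. The epithelial markers summed to 286 CPM, against 299.5 to 379 CPM in the others, and the endothelial markers to 216 CPM, against 203 to 257 CPM. The macrophage markers, at 13.2 CPM, were lowest in this library. The part of these markers in the results below was not tested.

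**Figure D2:**
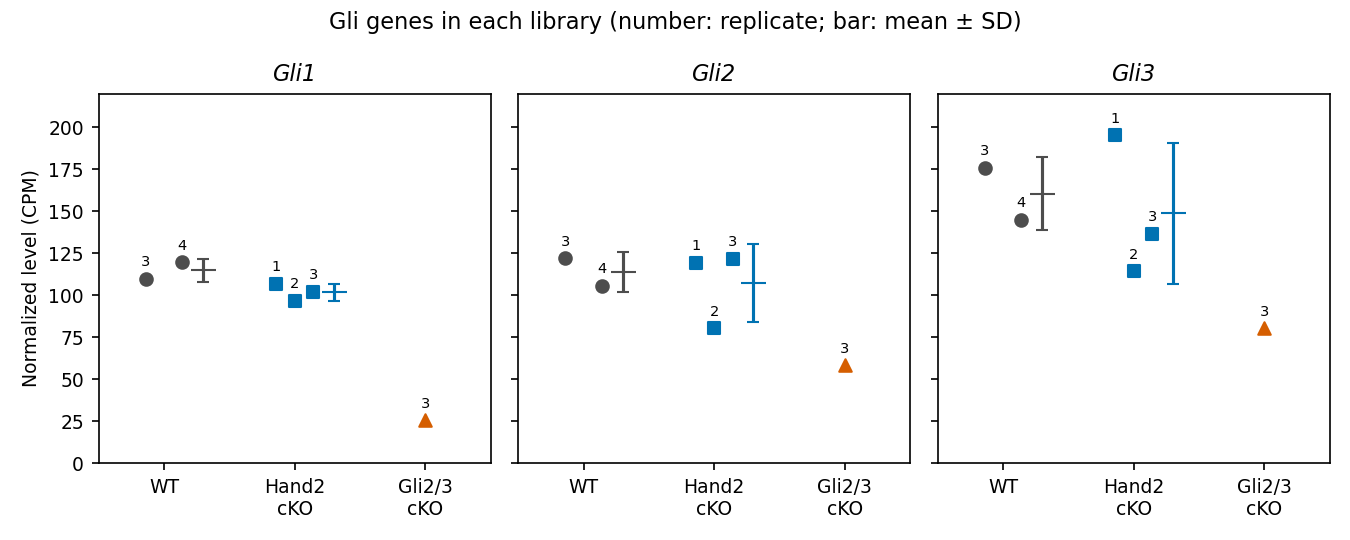
Normalized level (CPM, y axis) of Gli1, Gli2 and Gli3 in each library by group (x axis), with the replicate number above each point and the mean ± SD beside groups with more than 1 library. The Gli2/3 cKO library is lowest for each gene, at 25.7 CPM of Gli1, 58.3 CPM of Gli2 and 80.2 CPM of Gli3, and Hand2 cKO 2 is the lowest Hand2 cKO library for each gene.

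Differences were tested with edgeR's quasi-likelihood test. Benjamini-Hochberg adjustment ran over all 17477 genes tested, and calls needed both an adjusted p under 0.05 and a difference of more than 1.5-fold. The log2 fold change between Gli2/3 cKO and WT was -0.96 ± 0.31 (SE, 95% interval -1.73 to -0.20) for Gli2 and -1.0 ± 0.36 (-1.88 to -0.12) for Gli3. edgeR called neither targeted gene, with unadjusted p = 0.0215 and 0.0321 and adjusted p = 0.962 and 1. Over 13 alternative settings the adjusted p ran from 0.0707 to 1 for Gli2 and from 0.208 to 1 for Gli3, and DESeq2's Wald test gave 0.297 and 0.420. Since the Gli2/3 cKO group is 1 library, the test borrows its spread from the other groups, and its p-values measure only the spread between these samples, for which the labels do not state separate litters.

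Gli1 showed the largest difference of the 3. It was at 109.9 and 119.6 CPM in WT and at 25.7 CPM in the Gli2/3 cKO library, far below both. The level was 22.4% of the WT mean, or 4.47-fold lower. The log2 fold change was -2.16 ± 0.21 (SE, 95% interval -2.67 to -1.64), so the interval for the level ran from 0.157 to 0.320 times that of WT. edgeR did not call Gli1 (unadjusted p = 4.44e-05, adjusted p = 0.129), which had the sixth lowest p of all 17477 genes, and DESeq2 called it (adjusted p = 1.22e-18). In this comparison edgeR called 2 genes lower (0.0114% of those tested) and 0 higher, and DESeq2 called 108 lower (0.618%) and 19 higher. At an unadjusted p below 0.05, edgeR had 517 genes lower (2.96%) and 285 higher (1.63%), and all 3 Gli genes were among the lower. The Gli1 call was gained in 5 of the 13 alternatives, with an adjusted p of 1.22e-18 to 0.410 over all of them. One of the 5 left out Hand2 cKO 2, which gave a log2 fold change of -2.17 ± 0.13 (SE) and an adjusted p of 0.0194.

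**Figure D3:**
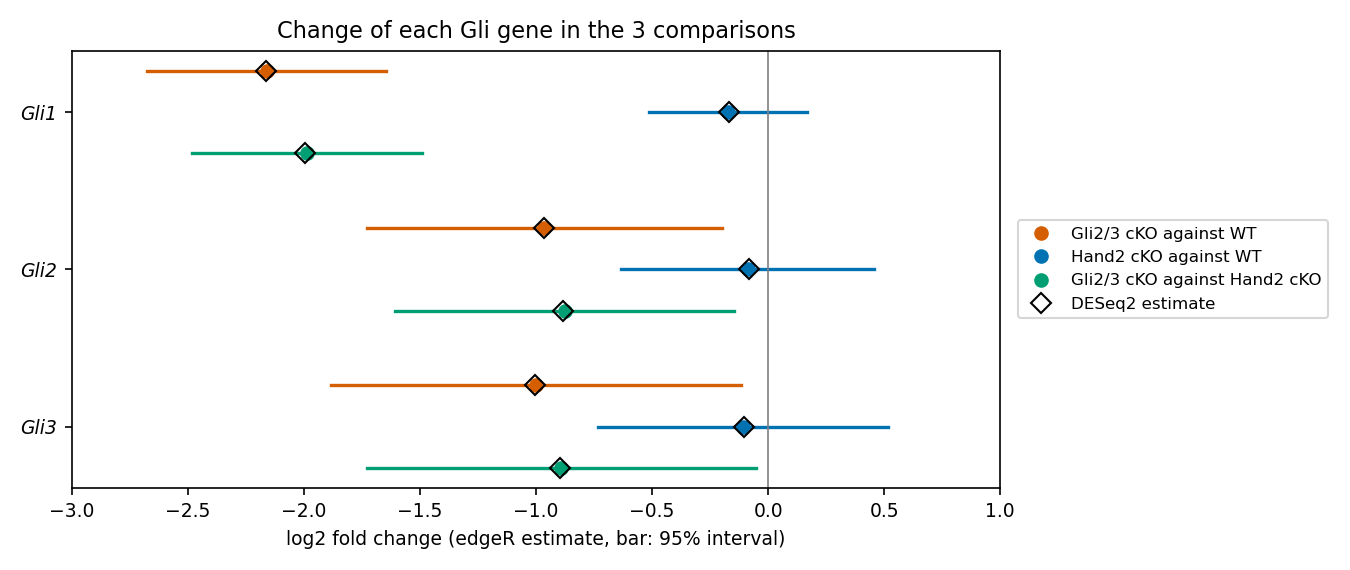
log2 fold change (x axis) of Gli1, Gli2 and Gli3 (y axis) in the 3 comparisons, with points for the edgeR estimate, bars for its 95% interval and open diamonds for the DESeq2 estimate. The intervals of both Gli2/3 cKO comparisons lie below 0 for all 3 genes, and those of Hand2 cKO against WT cross 0.

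Hand2 encodes a transcription factor of the distal MNP mesenchyme, and in Hand2 cKO all 3 Gli genes were measured near their WT levels. Gli1 was at 106.7, 96.7 and 102.1 CPM against the 109.9 and 119.6 CPM of WT, so that all 3 Hand2 cKO libraries lay just below both WT libraries, as they did for 15.7% of all genes tested. Gli2 was at 119.3, 80.2 and 121.6 CPM and overlapped the 105.5 to 122.1 CPM of WT, with replicate 2 low. Gli3 was at 195.1, 114.1 and 136.6 CPM and overlapped the 145.0 to 175.7 CPM of WT, with replicate 1 above and replicates 2 and 3 below both WT libraries. The group means were 88.7%, 94.1% and 92.7% of WT for Gli1, Gli2 and Gli3, and 91.0%, 105.9% and 103.5% without Hand2 cKO 2.

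The log2 fold change between Hand2 cKO and WT was -0.17 ± 0.14 (SE) for Gli1, -0.088 ± 0.22 for Gli2 and -0.11 ± 0.26 for Gli3. None was called by edgeR (adjusted p = 0.732, 0.903 and 0.896) or by DESeq2 (adjusted p = 0.846, 0.954 and 0.949). Hand2 itself, the deleted gene, was at -3.40 ± 0.30 (SE) in this comparison. edgeR did not call it either (adjusted p = 0.058), while DESeq2 did (adjusted p = 4.8e-22), and 5 of the 13 alternatives called it. The lack of a call here is therefore weak evidence of an unchanged level. At an unadjusted p below 0.05, edgeR had 427 genes higher (2.44%) and 703 lower (4.02%), with none of the Gli genes among them, and it called 2 genes lower (0.0114%) and 0 higher, against 147 lower (0.841%) and 35 higher (0.2%) by DESeq2. The 95% intervals allow levels of 0.700 to 1.12 times WT for Gli1, 0.645 to 1.37 for Gli2 and 0.601 to 1.43 for Gli3. Differences within these intervals are not excluded with 3 against 2 libraries, and the intervals are not limits of detection. Without Hand2 cKO 2 the log2 fold change was -0.15 ± 0.095 (SE) for Gli1 and turned to 0.069 ± 0.11 for Gli2 and 0.036 ± 0.20 for Gli3.

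The mutants were also compared directly, since both comparisons above share the WT libraries. Relative to Hand2 cKO, the Gli2/3 cKO library had a log2 fold change of -1.99 ± 0.20 (SE, 95% interval -2.48 to -1.49) for Gli1. The values were -0.88 ± 0.30 (-1.61 to -0.15) for Gli2 and -0.89 ± 0.34 (-1.73 to -0.052) for Gli3. edgeR called none of the 3, with adjusted p = 0.0906 for Gli1, 0.828 for Gli2 and 0.890 for Gli3, and called 3 other genes lower (0.0172% of those tested) and 3 higher (0.0172%), or 0.0343% in all. At an unadjusted p below 0.05 edgeR had 459 genes lower (2.63%), all 3 Gli genes among them, and 499 higher (2.86%). DESeq2 called Gli1 (adjusted p = 6.43e-18), as 1 of 104 genes lower (0.595%), and not Gli2 or Gli3 (adjusted p = 0.292 and 0.446). Set against the single Hand2 cKO libraries, the Gli2/3 cKO level of Gli1 was 24.1%, 26.6% and 25.2%, a narrow range. For Gli2 it was 48.9%, 72.7% and 47.9%, and for Gli3 41.1%, 70.2% and 58.7%, with the highest of each against Hand2 cKO 2. Without Hand2 cKO 2 the log2 fold changes were -2.02 ± 0.13 (SE) for Gli1 (adjusted p = 0.0182), -1.05 ± 0.14 for Gli2 (adjusted p = 0.0993) and -1.05 ± 0.25 for Gli3 (adjusted p = 0.326). When each library's trend with transcript length was removed instead, Gli2 was called, at -1.07 ± 0.11 (adjusted p = 0.0383), and Gli1 at -2.07 ± 0.15 (adjusted p = 0.0157).

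Nearly all counts of each Gli gene were assigned to its full-length coding transcript. Gli1-201 took from 92.4% to 97.4% of the Gli1 counts of a library, Gli2-201 from 99.0% to 99.96% of the Gli2 counts and Gli3-201 from 98.4% to 99.7% of the Gli3 counts. In the Gli2/3 cKO library the shares were 93.8% (95% Wilson interval 91.6% to 95.3%) for Gli1-201, 99.7% (99.2% to 99.9%) for Gli2-201 and 98.8% (98.2% to 99.1%) for Gli3-201. These lay within the range of the other 5 libraries, and such intervals cover counting error only. The remaining Gli2 and Gli3 counts of the mutant were thus assigned to the same full-length transcripts as in WT. These values do not show whether those transcripts held the floxed exons.

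**Figure D4:**
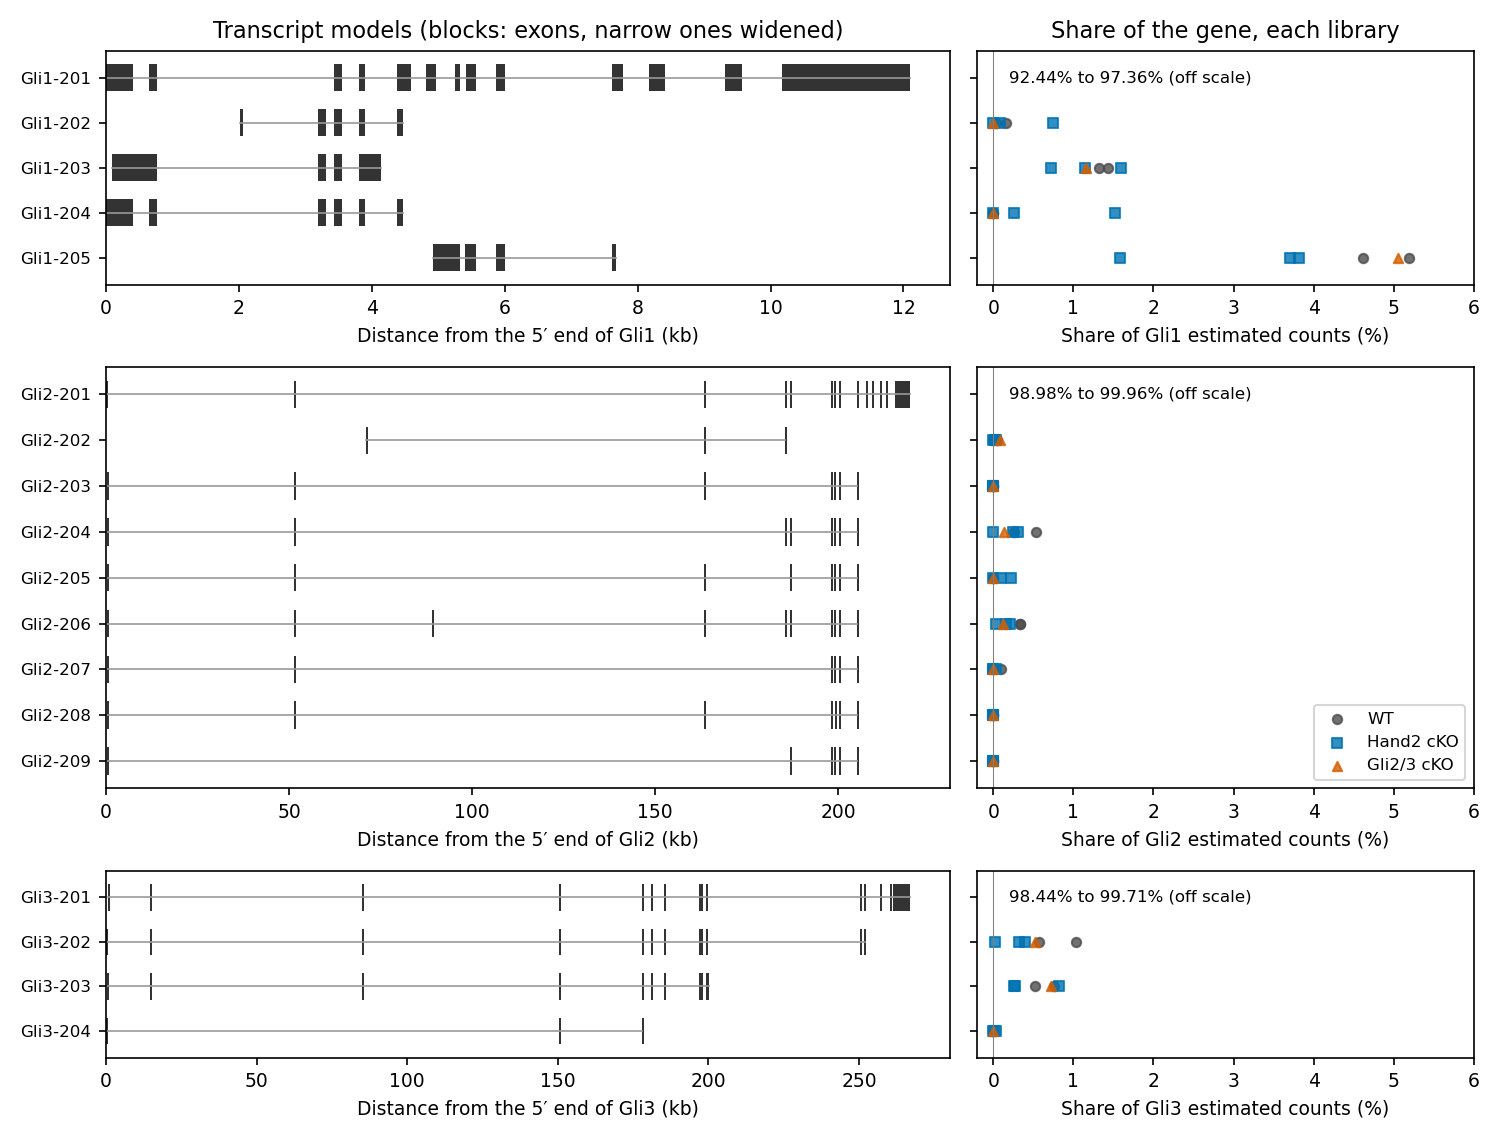
Left, exons of the 18 Gli transcripts by distance from the 5′ end of the gene (kb, x axis), with short exons drawn wider to be visible. Right, share of the estimated counts of the gene (%, x axis) that each shorter transcript took in each library, with the off-scale range of the full-length transcript written in. No shorter transcript took more than 5.19%, and the Gli2/3 cKO library (triangles) lies among the others except for Gli2-202, of which it took 0.0817%, the highest of the 6 libraries, from 1.25 counts.

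At the transcript level, Gli1-201 was at 103.2 and 111.6 CPM in WT, at 98.6, 94.1 and 97.0 CPM in Hand2 cKO and at 24.1 CPM in the Gli2/3 cKO library. Gli2-201 was at 120.8 and 104.8 CPM in WT, at 118.6, 80.2 and 120.8 CPM in Hand2 cKO and at 58.1 CPM in the Gli2/3 cKO library. Gli3-201 was at 172.9 and 143.1 CPM in WT, at 193.9, 113.8 and 135.0 CPM in Hand2 cKO and at 79.2 CPM in the Gli2/3 cKO library. The Gli2/3 cKO library was lowest for all 3, while WT and Hand2 cKO overlapped for Gli2-201 and Gli3-201. Between Gli2/3 cKO and WT the log2 fold change was -2.20 ± 0.27 (SE) for Gli1-201, -1.0 ± 0.31 for Gli2-201 and -1.04 ± 0.37 for Gli3-201. Over 58855 transcripts tested by edgeR, 0 were called in any of the 3 comparisons (0.0%), and these 3 had adjusted p = 0.775, 1 and 1. Their unadjusted p-values in edgeR were 0.000324, 0.0201 and 0.0355. The CPM of transcripts use the library scaling of the gene test, whereas their fold changes use a scaling computed over transcripts. The 2 can therefore differ somewhat. Of the 18 Gli transcripts, 12 passed the filter on low counts and were tested.

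The shorter transcripts were minor. The largest was Gli1-205, a transcript with a retained intron, which took 4.62% and 5.19% of Gli1 counts in WT, 3.71%, 1.58% and 3.82% in Hand2 cKO and 5.06% in the Gli2/3 cKO library. Hand2 cKO 2 was thus lowest. Gli1-203, also with a retained intron, took 1.43% and 1.32% in WT, 1.59%, 0.716% and 1.15% in Hand2 cKO and 1.16% in the Gli2/3 cKO library. Gli1-204, which shares its 5′ exons with Gli1-201, had counts only in Hand2 cKO 1 (85.8) and Hand2 cKO 2 (9.61), and was at 0 in the other 4 libraries. A count of 0 allows a share of up to 0.447% of Gli1 in the Gli2/3 cKO library, at 3 counts. Of the 9 Gli2 transcripts, Gli2-203, Gli2-208 and Gli2-209 were at 0 in every library, which allows each a share of up to 0.0476% of Gli2 in Hand2 cKO 1 and up to 0.197% in the Gli2/3 cKO library.

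Among the other short Gli2 transcripts, Gli2-206, which ends before the zinc-finger stretch shown above, took 0.0369% to 0.337%, and Gli2-204, marked for nonsense-mediated decay, took 0 to 0.538%. Gli2-202, Gli2-205 and Gli2-207 had at most 10.8 counts in a library. Gli3-202 took 0.0248% to 1.03% and Gli3-203, with a retained intron, 0.256% to 0.816%. Gli3-204 had at most 1.53 counts. Gli1-202 had at most 41.9 counts, in Hand2 cKO 1. Summed over all shorter transcripts, Hand2 cKO 2 had the lowest share of the 6 libraries for each gene, at 2.64% of Gli1, 0.0369% of Gli2 and 0.289% of Gli3. Whether the make-up of a gene by transcript differed between groups was tested with edgeR over 10813 genes. No Gli gene was called, with adjusted p of 1 for all 3 between Gli2/3 cKO and WT, of 0.565 to 0.749 between Hand2 cKO and WT and of 0.976 to 1 between the mutants. The test called 4 genes (0.037%), 44 genes (0.407%) and 27 genes (0.25%) in these comparisons.

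The 250 bases before the RefSeq starts (GRCm38.p6) of the targeted genes Gli2 and Gli3 are shown because Hand2 and Gli proteins are themselves DNA-binding factors. The promoter of Gli1 was not analysed here. The Gli2 stretch is chr1:119053620-119053869 on the minus strand and the Gli3 stretch chr13:15463473-15463722 on the plus strand. Capitals mark the only match of the motifs searched.
Gli2: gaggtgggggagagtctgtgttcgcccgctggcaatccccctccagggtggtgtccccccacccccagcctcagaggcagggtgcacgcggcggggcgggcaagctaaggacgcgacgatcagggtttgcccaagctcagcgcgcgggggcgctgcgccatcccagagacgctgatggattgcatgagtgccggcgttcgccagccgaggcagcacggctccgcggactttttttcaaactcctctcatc
Gli3: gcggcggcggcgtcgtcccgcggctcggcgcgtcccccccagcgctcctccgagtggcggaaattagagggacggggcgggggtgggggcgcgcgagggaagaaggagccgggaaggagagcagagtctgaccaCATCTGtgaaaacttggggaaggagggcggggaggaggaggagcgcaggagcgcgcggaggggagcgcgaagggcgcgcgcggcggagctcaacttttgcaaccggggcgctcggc
Both strands were searched for GACCACCC, the consensus bound by Gli proteins, and for CATCTG, an E-box of the kind that basic helix-loop-helix factors such as Hand2 bind. The motifs do not overlap each other. The Gli2 stretch held neither, and the Gli3 stretch held CATCTG once, from position -116 relative to the start. GACCACCC occurred in 0.703% and CATCTG in 14.4% of 32851 mouse promoters of this length. The RefSeq start of Gli3 is the annotated start of Gli3-203 at 15463723, whereas the full-length Gli3-201 starts at 15463980.

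The Gli genes were then set beside the other genes of the Hedgehog pathway, grouped by role. Of 8 ligands and genes for their release, edgeR called 0 higher and 0 lower in any comparison. Between Gli2/3 cKO and WT, 1 was higher, beside 1.63% of all genes tested, and 1 lower, beside 2.96%, at an unadjusted p below 0.05 in edgeR. The median log2 fold change was -0.019, beside 0.0012 over all genes tested. DESeq2 called 0. Shh, the ligand, was at 10.5 and 10.3 CPM in WT, at 10.2, 11.5 and 12.5 CPM in Hand2 cKO and at 18.3 CPM in the Gli2/3 cKO library, which was above all others. Its log2 fold change between Gli2/3 cKO and WT was 0.82 ± 0.23 (SE, edgeR adjusted p = 0.853). Scube1, which helps to release ligand, was at 81.3 and 57.0 CPM in WT and at 51.0, 33.6 and 44.5 CPM in Hand2 cKO. It was lowest in the Gli2/3 cKO library, at 30.7 CPM, as were 16.8% of all genes tested. It lay below both WT libraries in all Hand2 cKO libraries, as did 15.7%. Its log2 fold change was -1.17 ± 0.34 (adjusted p = 0.868) in Gli2/3 cKO and -0.69 ± 0.24 (adjusted p = 0.723) in Hand2 cKO, or -0.55 ± 0.18 without Hand2 cKO 2. Scube2, a related gene, had 0.253 CPM (13 counts) in WT 3 and 1.10 CPM (25 counts) in WT 4, 0.189, 0.0528 and 0.169 CPM in Hand2 cKO and 0.230 CPM in the Gli2/3 cKO library, so that only WT 4 stood out. Its log2 fold change in Hand2 cKO against WT was -2.20 ± 0.84 (adjusted p = 0.723). It was -0.84 ± 0.85 without WT 4 and -1.84 ± 0.86 without Hand2 cKO 2.

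Of 8 receptors and co-receptors, edgeR and DESeq2 called 0 in either direction in all 3 comparisons. The median log2 fold change was -0.20 in Gli2/3 cKO against WT and -0.19 in Hand2 cKO against WT, beside 0.0012 and -0.00012 over all genes tested. Ptch1, the Hedgehog receptor and itself a target of the pathway, was at 263.6 and 254.4 CPM in WT, at 235.4, 139.5 and 272.9 CPM in Hand2 cKO and at 159.0 CPM in the Gli2/3 cKO library. The Gli2/3 cKO library lay below both WT libraries, but Hand2 cKO 2 lay lower still. Ptch1 had a log2 fold change of -0.70 ± 0.40 (SE, edgeR adjusted p = 1) in Gli2/3 cKO against WT. Gas1, a co-receptor, was at 176.5 and 118.5 CPM in WT, at 223.1, 232.5 and 203.5 CPM in Hand2 cKO and at 165.0 CPM in the Gli2/3 cKO library. All Hand2 cKO libraries lay above both WT libraries for Gas1, as they did for 15.3% of all genes tested. Its log2 fold change in Hand2 cKO against WT was 0.57 ± 0.21 (SE, edgeR adjusted p = 0.723), or 0.52 ± 0.20 without Hand2 cKO 2.

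Of 15 regulators of Gli proteins, such as the inhibitor Sufu, the kinesin Kif7 and the kinases and ligase parts that mark Gli proteins for cutting, edgeR and DESeq2 called 0 in every comparison, and 0 passed an unadjusted p of 0.05. The medians were 0.025 in Gli2/3 cKO against WT and 0.043 in Hand2 cKO against WT. Btrc is an adaptor of the ubiquitin ligase that acts on Gli3. It was at 58.2 and 56.6 CPM in WT and at 58.1, 61.5 and 61.2 CPM in Hand2 cKO. Btrc was lowest in the Gli2/3 cKO library, at 45.8 CPM, as were 16.8% of all genes tested. Its log2 fold change was -0.33 ± 0.18 (SE, edgeR adjusted p = 1) against WT. The casein kinase gene Csnk1a1 was at 0.29 ± 0.22 in the same comparison, and the kinase gene Stk36 and the adaptor gene Spop were at -0.33 ± 0.19 and 0.21 ± 0.15 in Hand2 cKO against WT (-0.23 ± 0.14 and 0.12 ± 0.098 without Hand2 cKO 2), none of them called.

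**Figure D5:**
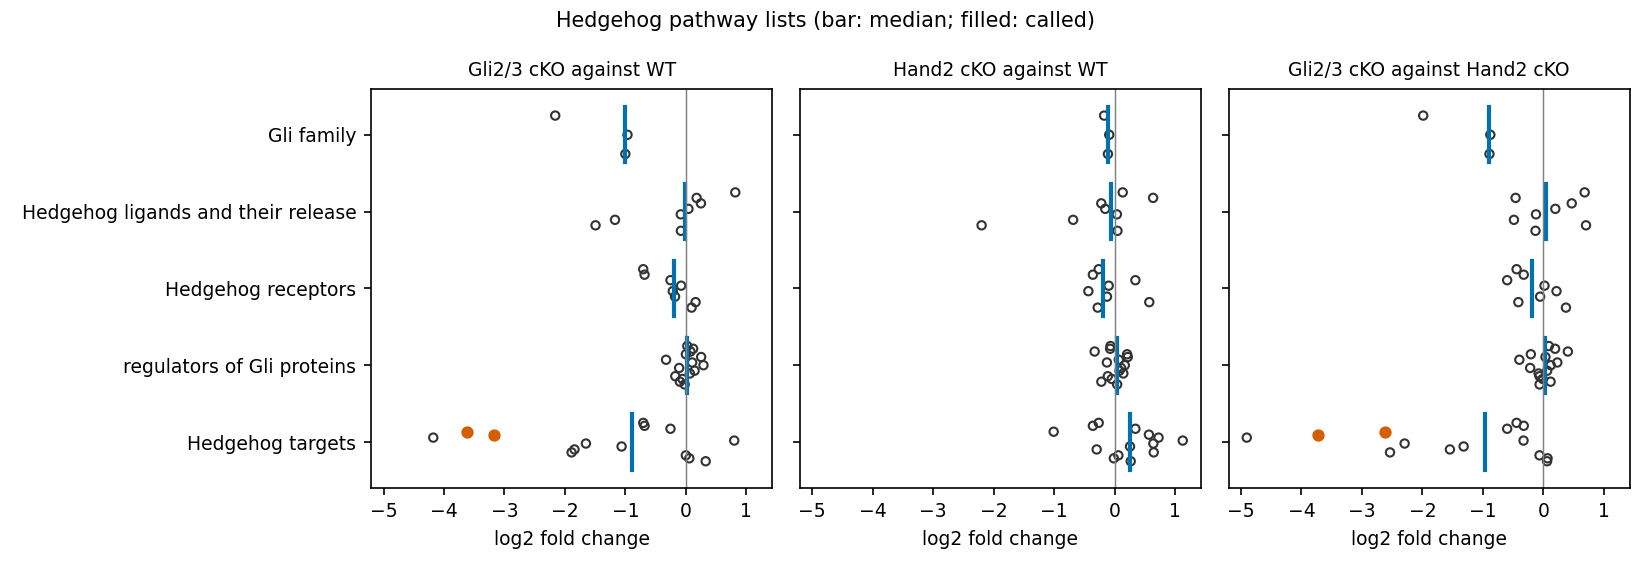
log2 fold change (x axis) of each gene of the Gli family and the Hedgehog pathway lists (y axis) in the 3 comparisons, with filled points for genes called by edgeR, open points for the rest and a vertical bar for the median of the list. The filled points are Foxf1 and Foxf2 among the targets, called in both Gli2/3 cKO comparisons.

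Of 14 Hedgehog targets, edgeR called 2 lower and 0 higher in Gli2/3 cKO against WT, beside 0.0114% of all genes tested called lower, and DESeq2 called 5 lower, beside 0.618%, and 0 higher. At an unadjusted p below 0.05, 7 were lower, beside 2.96%, and 0 higher, and the median log2 fold change was -0.88, beside 0.0012 over all genes tested. The called genes, Foxf1 and Foxf2, encode forkhead factors of Hedgehog-responsive mesenchyme and were the only 2 genes edgeR called in the whole comparison. The list was drawn up with earlier results of these libraries known, and its counts are no independent evidence. Foxf1 fell from 56.7 and 62.7 CPM in WT to 4.86 CPM in the Gli2/3 cKO library, and was at 30.8, 29.5 and 28.8 CPM in Hand2 cKO. Foxf2 fell from 32.2 and 33.1 CPM in WT to 3.63 CPM in the Gli2/3 cKO library, and was at 47.8, 50.5 and 46.9 CPM in Hand2 cKO. For both genes no groups overlapped, and Hand2 cKO lay between the others for Foxf1 and above WT for Foxf2. Of all genes tested, 15.7% had all Hand2 cKO libraries below both WT libraries and 15.3% had them above. The Gli2/3 cKO library was the lowest for 16.8%.

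The log2 fold change in Gli2/3 cKO against WT was -3.62 ± 0.22 (SE) for Foxf1 and -3.16 ± 0.21 for Foxf2 (adjusted p = 0.0413 for both). The call of each was lost with the robust prior (adjusted p = 0.0511) and without WT 3, WT 4 or Hand2 cKO 1, with adjusted p = 0.0574, 0.124 and 0.132 for Foxf1 and 0.0801, 0.146 and 0.132 for Foxf2. In Hand2 cKO against WT edgeR called 0 targets. DESeq2 called 0 higher, beside 0.2% of all genes tested, and 1 lower, beside 0.841%, and the median was 0.26. Foxf1 was at -1.01 ± 0.13 (edgeR adjusted p = 0.134, 0.0482 without Hand2 cKO 2, DESeq2 2.56e-06), and Foxf2 at 0.57 ± 0.13 (edgeR adjusted p = 0.530), or 0.52 ± 0.088 without Hand2 cKO 2. Between the mutants edgeR called Foxf1 (-2.61 ± 0.21, adjusted p = 0.0365) and Foxf2 (-3.73 ± 0.21, adjusted p = 0.0163), and the median of the 14 was -0.96, beside -0.015 over all genes tested. Both calls were lost without Hand2 cKO 1 (adjusted p = 0.174 and 0.0782), and that of Foxf1 also without WT 3, WT 4 or Hand2 cKO 3 (adjusted p = 0.0865, 0.0896 and 0.0964) and with only the groups compared (0.0977).

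The genes whose log2 level over the 6 libraries was most like that of each Gli gene were found by Pearson's correlation among 9537 protein-coding genes with a mean log2 CPM of at least 3. The 6 points share libraries, and 1 of them is the only Gli2/3 cKO library, so the values are a description. Pla2g4a (r = 0.990), Gaa (0.988) and Vcam1 (0.986) were most like Gli1, Slfn9 (0.994), Tbc1d24 (0.993) and Slc18b1 (0.992) were most like Gli2, and Erbb2 (0.989), Pear1 (0.987) and Lypd6 (0.983) were most like Gli3. Pla2g4a was at 23.9 and 26.6 CPM in WT, at 22.4, 23.1 and 23.4 CPM in Hand2 cKO and at 12.4 CPM in the Gli2/3 cKO library. Slfn9 was at 51.9 and 36.6 CPM in WT, at 45.9, 27.3 and 49.5 CPM in Hand2 cKO and at 15.1 CPM in the Gli2/3 cKO library. The genes most like Gli1 thus shared a low point in the Gli2/3 cKO library, and Slfn9, like Gli2, was low in Hand2 cKO 2 as well. Spearman's rho for these 9 genes ran from 0.543 to 1. Among the members, Pearson's r was 0.925 for Gli2 with Gli3, 0.867 for Gli1 with Gli2 and 0.834 for Gli1 with Gli3, and Spearman's rho gave another order, at 0.714, 0.600 and 0.771. All of these include Hand2 cKO 2, whose trend with transcript length came to -0.52 at the length of Gli2 and -0.64 at that of Gli3. Correlations over the 5 libraries without it were not computed, and the part of this trend in the values was not tested.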

How the data were processed

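Bulk RNA-seq libraries of MNPs were grouped by the genotype and replicate number in the labels. Of 10 samples, 6 were used and 4 were not analysed here. The methods say that alignment to mm10 and DESeq2 were run in Strand NGS. The submitters' processing notes name DESeq2 and mm10 as well. Neither the release of Strand NGS nor the transcript annotation is given in the sources used here. The deposited files hold expected counts, which are estimated counts per transcript from the authors' program, and 47.7% to 56.8% of the values of a library lay more than 0.01 from a whole number. How the program divided reads among transcripts that share exons, or between the strands, is not given, so single short transcripts are less certain than gene sums.

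Estimated counts were summed by gene symbol and rounded. The gene test was edgeR 4.0.16 (R 4.3.3) with TMM scaling. filterByExpr kept 17477 genes. All 6 libraries entered 1 quasi-likelihood fit on genotype (residual df 3, prior df 3.14, common BCV 0.289). The single Gli2/3 cKO library adds no residual degree of freedom. DESeq2 1.42.0 was an alternative. Transcripts were fitted alike (58855 tested) and transcript usage was tested with diffSpliceDGE. The steps were also run on simulated counts without a trend with transcript length, and no result given here rests on that run. TPM used lengths from GENCODE M21, which matched 99593 transcripts with their version and 103723 without it. Replicate pairs differed by 24.0 to 225 chi-square units per degree of freedom, so none was a duplicate. Depth ran from 21420197 to 53326697 estimated counts, and 3 counts equal 0.0567 to 0.133 CPM. Intervals are at 95%. Named genes were the members, Hand2 and, in each of 6 pathway lists and each comparison, the called members or else the 2 with the smallest p. A pathway gene that this rule selects is not reported here. Members, lists and markers were chosen with earlier results of these data known. Likeness left out predicted gene models, pseudogenes and ribosomal protein genes. Alternatives were other scalings, no filter, DESeq2, only the groups compared, a robust prior, the transcript length trend removed, unrounded sums and each WT and Hand2 cKO library left out.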

Additional observations from a re-analysis of the deposited data

How the results depend on the processing

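Of 117 alternative values of the 9 gene-level log2 fold changes, 101 kept their direction and their side of the threshold, 10 gained a call and 6 turned sign. No paired analysis was possible because the groups with files share only replicate number 3. In Gli2/3 cKO against WT, Gli1 gained its call at -2.16 with no filter on low counts, with DESeq2 and with only the groups compared, and at -2.18 with the length trend removed. Leaving out single libraries gave -2.22 to -2.10, with a call only without Hand2 cKO 2. In Gli2/3 cKO against Hand2 cKO, Gli1 gained its call at -1.99 with no filter, -2.0 with DESeq2 and -2.07 with the length trend removed, and single left-out libraries gave -2.02 to -1.95, with a call only without Hand2 cKO 2. Gli2 gained its call at -1.07 with the length trend removed. In Hand2 cKO against WT, removing the length trend turned Gli2 to 0.083 and Gli3 to 0.13, and leaving out single libraries gave -0.19 to 0.069 for Gli2 and -0.36 to 0.036 for Gli3, with the sign turned without WT 3 or Hand2 cKO 2. There, leaving out single libraries gave -0.0888 to 0.0077 for Gli1-201, -0.091 to 0.13 for Gli2-201 and -0.225 to 0.156 for Gli3-201. These 3 were near 0 throughout and never called. The cause of these changes was not tested.

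The number of genes called in Gli2/3 cKO against WT was 2, but 127 with DESeq2, 57 with only the groups compared, 21 with no filter, 20 with the length trend removed, 0 with the robust prior and 0 to 14 when single libraries were left out. In Hand2 cKO against WT it was 2, but 182, 45 with no filter, 67 with the length trend removed, 1 with upper-quartile scaling and 1 to 39. Between the mutants it was 6, but 145, 39, 44, 20 with only the groups compared and 2 to 23. Each Gli gene had at least 671 estimated counts in every library, far above the floor of 3 counts. The Gli2/3 cKO group is 1 library, and what limits its comparisons was not tested.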

Other observations

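The genes most closely related to the Gli genes by their zinc fingers are the Glis and Zic genes, and 7 of the 8 were tested. edgeR called 0 of them in any comparison, 3 were higher, beside 1.63% of all genes tested, and 0 lower at an unadjusted p below 0.05 in Gli2/3 cKO against WT, and DESeq2 called 1 higher, beside 0.109%. Their median log2 fold change was 0.998, also with Zic4 at its lower bound, beside 0.0012 over all genes tested. Glis2 was the only one at a level per length like that of the Gli genes, at 55.5 and 42.3 TPM in WT, at 43.9, 29.1 and 47.9 TPM in Hand2 cKO and at 40.4 TPM in the Gli2/3 cKO library, which lay within the range of the others.

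Zic1, a gene of the dorsal neural tube and of other tissues of the embryo, had 5 and 1 counts in WT, 37, 6 and 15 in Hand2 cKO and 71 in the Gli2/3 cKO library, that is 2.72 CPM there. Its fold change was not called by edgeR (adjusted p = 0.534) and was called by DESeq2 (adjusted p = 0.00598). Zic4 had 0 counts in both WT libraries, 4, 1 and 4 in Hand2 cKO and 15 in the Gli2/3 cKO library, at least 4.32-fold higher than the level of 3 counts in WT 4, and was not called (edgeR adjusted p = 0.684). Both genes were at their highest in the Gli2/3 cKO library, at low counts. Beside this, the neuronal markers summed to 28.9 CPM in that library, below the 29.5 to 37.8 CPM of the others, a sum carried by Isl1 and Tubb3. Of the 6 neuronal markers, 3 had a positive log2 fold change in Gli2/3 cKO against WT (Neurod1 3.24, Elavl3 1.31 and Elavl4 0.71) and 3 a negative one, with a median of 0.18, and none was called. Their part in the Zic levels was not tested.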
